A study of Mus musculus with 250 samples.

Results

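Gluconeogenesis and amino acid catabolism were followed through 9 enzyme genes, Pck1, G6pc, Fbp1, Pcx, Tat, Tdo2, Sds, Hpd and Got1, taken as a fixed list and measured by the probe sets that carry that gene symbol alone. Of the 9 listed genes, 8 had such a probe set (12 probe sets in all, besides 4 control probe sets of the array for Pcx), of 18193 genes in the whole series. Sds, serine dehydratase, had none and is named only. The members comprise 4 enzymes of gluconeogenesis (Pck1, G6pc, Fbp1 and Pcx) and 4 of amino acid catabolism (Tat, Tdo2, Hpd and Got1).

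The tissues came from female FVB mice. Tumor-bearing mice carried MMTV-rtTA together with TetO-NeuNT, so that doxycycline switches on the activated rat Neu oncogene where the MMTV promoter is active, chiefly in mammary epithelium. Control mice were littermates with TetO-NeuNT alone, matched to a tumor-bearing mouse by age and cage. At 8 weeks of age both groups were put on drinking water with 2 mg/mL doxycycline and 5% sucrose, and both mice of a pair were killed once its tumor measured 1 cm, so the drug and the TetO-NeuNT transgene are shared by all groups. Liver, breast, spleen, blood cells (blood with the plasma removed) and thymus were each measured in 25 such pairs, 250 arrays in all, and the breast samples of tumor-bearing mice are labelled as tumor tissue. Chow and water were freely available, per the labels, and no fast before death is mentioned there.

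Gluconeogenesis makes glucose from lactate, glycerol and amino acids and, on fasting, is carried mainly by the liver. Pyruvate carboxylase (Pcx) makes oxaloacetate from pyruvate, the cytosolic phosphoenolpyruvate carboxykinase (Pck1) turns oxaloacetate into phosphoenolpyruvate, fructose-1,6-bisphosphatase (Fbp1) acts further up the pathway, and the catalytic subunit of glucose-6-phosphatase (G6pc) releases free glucose. Tyrosine aminotransferase (Tat) and 4-hydroxyphenylpyruvate dioxygenase (Hpd) are consecutive steps of tyrosine breakdown, tryptophan 2,3-dioxygenase (Tdo2) opens tryptophan breakdown, and the cytosolic aspartate aminotransferase (Got1) links aspartate to oxaloacetate. Pck1, G6pc and Tat are textbook targets of glucagon and glucocorticoids. In adipocytes Pcx and Pck1 serve lipid storage, Pck1 by making glycerol 3-phosphate.

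The promoters of Pck1, G6pc and Tat are shown because these 3 hormone-responsive genes are set against each other below. Each runs from 250 bases before to 50 bases after the RefSeq gene start (build GRCm38.p6, all on the plus strand), with capitals marking matches to any of 5 short motifs searched on both strands: the cAMP response element core ACGTCA, the FOXO element GTAAACA, the glucocorticoid receptor half-site TGTTCT, the C/EBP element TTNCNNAA and the TATA element TATAAA.
Pck1, chr2:173152823-173153122: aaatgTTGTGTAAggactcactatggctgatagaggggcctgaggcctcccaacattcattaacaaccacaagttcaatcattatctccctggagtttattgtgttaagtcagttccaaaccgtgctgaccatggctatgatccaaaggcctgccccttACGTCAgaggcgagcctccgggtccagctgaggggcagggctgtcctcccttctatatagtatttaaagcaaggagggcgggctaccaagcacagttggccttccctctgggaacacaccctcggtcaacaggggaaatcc
G6pc, chr11:101367466-101367765: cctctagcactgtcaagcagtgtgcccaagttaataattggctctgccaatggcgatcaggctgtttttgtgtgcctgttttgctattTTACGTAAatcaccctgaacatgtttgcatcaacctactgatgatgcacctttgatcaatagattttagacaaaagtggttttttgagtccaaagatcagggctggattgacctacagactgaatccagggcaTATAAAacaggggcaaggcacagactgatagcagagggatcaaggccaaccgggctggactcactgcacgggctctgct
Tat, chr8:109990186-109990485: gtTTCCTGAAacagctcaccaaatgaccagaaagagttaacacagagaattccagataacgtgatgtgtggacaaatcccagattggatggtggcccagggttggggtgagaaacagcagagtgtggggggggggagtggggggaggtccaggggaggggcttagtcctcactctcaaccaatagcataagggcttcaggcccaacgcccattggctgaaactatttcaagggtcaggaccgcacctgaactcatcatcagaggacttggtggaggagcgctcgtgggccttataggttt
In Pck1 the cAMP response element core lies at bases -91 to -86 from the start and a C/EBP element at -245 to -238. In G6pc a C/EBP element lies at -162 to -155 and a TATA element at -29 to -24. Tat has a C/EBP element alone, at -248 to -241. None of these matches overlaps another. Of the 9 promoters listed for the members (Pcx has 2, Sds none), 1 held the cAMP response element core, 4 the C/EBP element, 2 the TATA element and 0 each the FOXO element and the glucocorticoid receptor half-site. Over all 32851 promoters in the RefSeq table the shares were 7.51%, 40.68%, 13.62%, 3.65% and 18.97% in the same order. A match is a description of the letters only.

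Values are log2 probe set intensity, changes are tumor-bearing minus matched control on that scale ± SE from limma with the pair as a block, and a gene is called at a Benjamini-Hochberg adjusted p under 0.05 over all 18193 genes of the tissue. "Rose" and "fell" are used of called genes alone. Array medians differ between the tissues, and whether they were normalized together is unknown, so no level is set against that of another tissue. The mouse Erbb2 probe set, which checks the labels only in part because the transgene is the rat form, rose in breast by 1.28 ± 0.15 (adjusted p = 2.93e-08, higher in 23 of 25 pairs) and was not called in liver (-0.09 ± 0.06, adjusted p = 0.411). An array was taken to stand apart where its median correlation with the other arrays of its tissue and group lay more than 5 scaled median absolute deviations under the tissue's middle value. This marked 5 arrays in liver, 3 in breast, 4 in spleen, 3 in blood and 3 in thymus, and results are given with all 25 pairs and with the pairs of those arrays left out (20 pairs in liver, 22 in each other tissue). No 2 arrays were identical.

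One of these arrays weighs heavily on the liver values. The liver control of pair 2 had a median correlation of 0.336 with the other liver controls, where the middle value over liver arrays was 0.993. Among its hepatocyte markers Alb (14.53), Ttr (13.97) and Apoa1 (14.20, control median 14.72) stayed bright, though the list's mean was low. Its members were the lowest of all liver arrays (Pck1 5.71, Tat 7.39, Tdo2 6.80, Got1 6.92, G6pc 6.44, Pcx 8.30, Hpd 9.60 and Fbp1 10.0). The mean level of 10 hepatocyte markers was 10.9 there, against a median of 13.7 among liver controls. Its 3′ to 5′ signal ratio, a measure of RNA quality, was 0.943 for Gapdh and 1.86 for Actb on the log2 scale, against group means of -0.08 ± 0.22 and 0.73 ± 0.27 (SD, n = 25). The liver control of pair 7 was the next lowest in correlation, at 0.828. The part of RNA quality in these arrays' values was not tested.

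**Figure D1:**
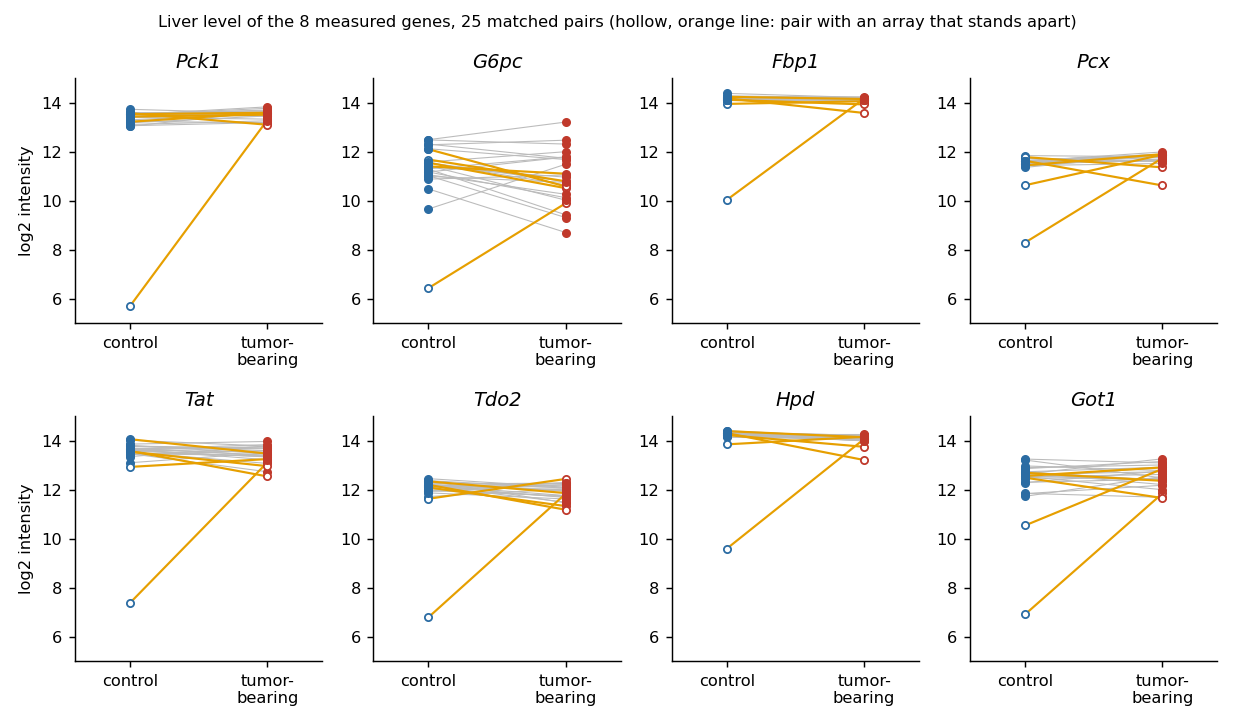
Liver log2 intensity of the 8 measured genes in control (blue) and tumor-bearing (red) mice, with a line for each of 25 matched pairs. Hollow points and orange lines are the 5 pairs with an array that stands apart, and the control of pair 2 lies far under every other array for Pck1 (5.71) and Tat (7.39).

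All 8 measured members were abundant in liver. Each lay above its array's median gene in all 50 liver arrays, except Pck1 in 49. With all 25 pairs, 0 of the 8 members were called in liver by limma (1, Pcx, had an unadjusted p under 0.05), where 7.89% of all genes rose and 2.28% fell (1436 and 415 genes, or 1175 and 741 with quantile normalization). Without the 5 pairs with an array that stands apart, Pcx and Pck1 rose and Hpd and Tdo2 fell, while G6pc, Fbp1, Tat and Got1 were not called, against 18.6% of all genes that rose and 18.9% that fell. The calls were small, between 1.09-fold and 1.17-fold. The median change of the 8 members over these 20 pairs was -0.07, against -0.005 over all genes.

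Among the gluconeogenic enzymes, Pcx moved most evenly. Its liver level ran from 11.4 through a median of 11.6 to 11.9 in controls and from 11.54 through 11.85 to 12.00 in tumor-bearing mice of the 20 pairs. The groups overlapped, but 10 of the 20 tumor-bearing arrays lay above every control, and the level was higher in 18 of 20 pairs. The rise was 0.23 ± 0.04 (1.17-fold, limma adjusted p = 2.81e-05). The 4 Pcx control probe sets of the array, read from the same RNA and arrays, were higher by 0.25 to 0.29 in the same pairs. Their limma adjusted p, over probe sets in place of genes, lay between 8.5e-06 and 0.00111. With all 25 pairs Pcx stood at 0.33 ± 0.15 (adjusted p = 0.176). Among the 20 pairs, the rise was 0.30 ± 0.03 in 13 pairs with later sample IDs (adjusted p = 1.03e-05) and the change 0.10 ± 0.06 in 7 with earlier IDs (adjusted p = 0.342).

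Pck1 spanned 13.1 to 13.7 in controls (median 13.5) and 13.2 to 13.8 in tumor-bearing mice (median 13.6), so that the groups overlapped almost fully. It rose by 0.12 ± 0.04 (adjusted p = 0.0273), higher in 13 of 20 pairs. When each of the 20 pairs was left out in turn, the call held in 18 of 20 fits, and was lost without pair 14 or pair 22, with adjusted p up to 0.0527. Within the runs of sample IDs described below, it was 0.16 ± 0.04 in 7 earlier pairs (adjusted p = 0.0388) and 0.10 ± 0.06 in 13 later pairs (adjusted p = 0.248). A further Pck1 probe set of similar brightness gave 0.19 ± 0.06 (adjusted p = 0.0118 over probe sets), and a dim one, with a control mean of 6.50, gave -0.14 ± 0.07 (adjusted p = 0.133).

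G6pc was by far the most variable member. Its liver level ran from 9.67 through 11.35 to 12.50 in controls and from 8.71 through 11.02 to 13.22 in tumor-bearing mice, and the 3 lowest tumor-bearing arrays lay below every control while 1 lay above every control. The within-pair difference ran from -1.87 to 1.83, with an SD of 0.95 over 20 pairs, where the SD was 0.07 for Fbp1, 0.08 for Hpd and 0.40 for Got1. Its mean change was -0.39 ± 0.20 (adjusted p = 0.150), lower in 13 of 20 pairs, and its SE exceeds the changes of Pck1, Tdo2 and Hpd. The sample IDs fall into an earlier run of 10 pairs and a later run of 15, a difference the labels do not explain. In the later pairs G6pc fell by 0.72 (SE 0.24, adjusted p = 0.0339), while without the arrays that stand apart it was -0.64 ± 0.28 in 13 later pairs (adjusted p = 0.104) and 0.08 ± 0.15 in 7 earlier pairs (adjusted p = 0.773). Whether the change differs between the runs was not tested.

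Fbp1, at 14.1 to 14.4 in controls and 14.1 to 14.2 in tumor-bearing mice of the 20 pairs, was nearly constant, and its change was -0.03 ± 0.02 (adjusted p = 0.227). It was higher in 10 pairs and lower in 10.

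Among the enzymes of amino acid catabolism, Hpd changed most evenly. Its level ran from 14.15 through 14.31 to 14.42 in controls and from 13.99 through 14.12 to 14.27 in tumor-bearing mice. It was lower in 20 of 20 pairs, and 13 of the 20 tumor-bearing arrays lay below every control. The fall was small and precise, -0.17 ± 0.02 (1.13-fold lower, adjusted p = 5.46e-07), and in each of the 20 fits that left out a further pair the call held. It fell in the 7 earlier pairs (-0.17 ± 0.04, adjusted p = 0.0235) and in the 13 later ones (-0.17 ± 0.02, adjusted p = 0.000106). With all 25 pairs it was lower in 23, and the change was -0.02 ± 0.18, since pair 2 alone differed by 4.48 the other way. Without pair 2 alone, Hpd was the 1 member called (-0.21 ± 0.05, adjusted p = 0.00489), where 1994 of 18193 genes rose and 1398 fell.

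Tdo2 spanned 11.7 to 12.5 in controls (median 12.17) and 11.5 to 12.3 in tumor-bearing mice (median 12.04), and 5 of 20 tumor-bearing arrays lay below every control. It fell by 0.18 (SE 0.07, adjusted p = 0.0457, lower in 14 of 20 pairs), a call that held in 7 of 20 fits with a further pair left out. Adjusted over probe sets in place of genes, the probe set that stands for Tdo2 was not called (adjusted p = 0.0515), and its other probe sets gave -0.12 ± 0.04 and -0.21 ± 0.08 (adjusted p = 0.0142 and 0.0423). Of the 20 pairs, the 13 later ones gave a fall of 0.32 (SE 0.07, adjusted p = 0.00504) and the 7 earlier ones 0.08 ± 0.07 (adjusted p = 0.482). Within all 15 later pairs it fell by 0.39 (SE 0.08, adjusted p = 0.00156).

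Tat and Got1 were not called. Tat ran from 13.11 to 14.03 in controls and from 12.74 to 13.98 in tumor-bearing mice, with a change of -0.12 ± 0.06 (adjusted p = 0.171, lower in 13 of 20 pairs). In the 15 later pairs Tat fell by 0.25 (SE 0.07, adjusted p = 0.0168), but without the arrays that stand apart it was -0.19 ± 0.07 there (adjusted p = 0.0563). Got1 ran from 11.7 to 13.3 in both groups, and its change was 0.04 ± 0.09 (adjusted p = 0.788).

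**Figure D2:**
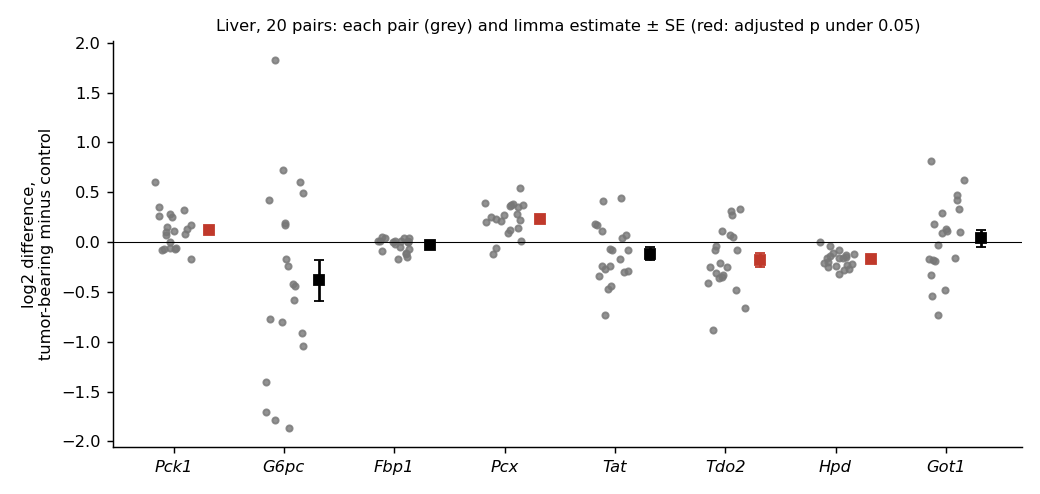
Liver log2 difference, tumor-bearing minus control, in each of the 20 pairs without an array that stands apart (grey), with the limma estimate ± SE beside it (red where the adjusted p is under 0.05). G6pc spreads from -1.87 to 1.83, whereas Hpd lies below 0 in 20 of 20 pairs and Fbp1 has an SD of 0.07.

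The liver members did not move as a unit. With pair 2 included, Pearson's r between within-pair differences of members ran as high as 0.99 (Pck1 with Fbp1), because a single pair spans the range, and Spearman's rho for the same genes was 0.37. Over the 20 pairs without an array that stands apart, Pck1 and G6pc had r = 0.20 and rho = 0.29, Pck1 and Tat r = -0.05 and rho = -0.06, and G6pc and Tat r = 0.48 and rho = 0.54. The closest members were Tat and Got1 (r = 0.59, rho = 0.58). The most opposed were Pcx and Hpd by r (r = -0.45, rho = -0.36) and Pcx and Tdo2 by rho (r = -0.44, rho = -0.41). These are descriptions over pairs, with no test.

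Outside the list, and among the 9097 genes at or above the median liver level, the genes most like G6pc over the 20 pairs were Slc25a25, a mitochondrial ATP carrier (rho = 0.81), Gadd45g, a stress-inducible gene (rho = 0.81), and Dusp1, a MAP kinase phosphatase (rho = 0.78). Of these Gadd45g rose by 1.15 ± 0.32 (limma adjusted p = 0.00612). Most like Tat were Mfsd2a, a lysophospholipid transporter (rho = 0.89), Yod1, a deubiquitinase (rho = 0.87), and Noct, a circadian nuclease (rho = 0.85), which fell by 0.60 (SE 0.21, adjusted p = 0.0284). For Tdo2 the highest were Ildr2 (rho = 0.82), Syap1 (0.78) and Chpt1 (0.75), and for Pck1 Serinc3 (0.69), Arhgef3 (0.675) and Idua (0.66). All of these were picked as the highest values among 9097 genes over only 20 pairs. How high the top values would run without any link was not tested.

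The wider liver pathways were described from lists chosen with earlier results of these data known. Of 15 measured other gluconeogenic enzymes and carriers, 8 fell and 1 rose over the 20 pairs, where 18.9% of all genes fell and 18.6% rose. Their median change was -0.11 against -0.005 over all genes, while with all 25 pairs 0 were called. The fallers included Gpt2, the mitochondrial alanine aminotransferase (-0.44 ± 0.06), the aspartate-glutamate carrier Slc25a13 (-0.30 ± 0.03), the pyruvate carrier subunit Mpc1 (-0.23 ± 0.02) and the malate dehydrogenase Mdh1 (-0.18 ± 0.02), each with an adjusted p of 2.39e-06 or lower. Gpt2 was picked after its values were seen. The riser was Pck2, the mitochondrial counterpart of Pck1 (0.26 ± 0.05, adjusted p = 0.000238).

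Of 43 measured other enzymes of amino acid catabolism, 28 fell and 2 rose over the 20 pairs, with a median of -0.13, where 18.9% of all genes fell. With all 25 pairs 1 fell, the proline dehydrogenase Prodh (-0.80 ± 0.23, adjusted p = 0.0224), and 0 rose. By smallest p over the 20 pairs, the dimethylglycine dehydrogenase Dmgdh (-0.39 ± 0.02), Hibadh of valine breakdown (-0.30 ± 0.02) and Mccc1 of leucine breakdown (-0.44 ± 0.04) led, with adjusted p up to 4.8e-09. The steps beyond Tat and Hpd fell slightly too: Hgd by 0.18 (SE 0.02), Gstz1 by 0.13 (SE 0.02) and Fah by 0.08 (SE 0.02), with adjusted p up to 0.00514. Cbs of the transsulfuration pathway rose by 0.29 (SE 0.05), as did Glud1, glutamate dehydrogenase, by 0.10 (SE 0.02). Hgd, Gstz1, Fah, Cbs and Glud1 were picked from the list after their values were seen.

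Among 32 measured hormonal and transcriptional regulators, 7 rose and 8 fell over the 20 pairs, where 18.6% of all genes rose and 18.9% fell. With all 25 pairs 5 rose and 1 fell, against 7.89% and 2.28% of all genes. Over the 20 pairs Socs3, a feedback inhibitor of cytokine signalling, rose by 2.77 ± 0.16 and Cebpd, a C/EBP transcription factor, by 1.33 ± 0.09. Stat3, the signal transducer of interleukin 6, rose by 1.03 ± 0.04 there, and the adjusted p of these genes ran up to 2.16e-10. In the same 20 pairs the glucocorticoid receptor gene Nr3c1 fell by 0.13 (SE 0.03, adjusted p = 0.00561). Klf15, a regulator of amino acid catabolism, fell there by 0.28 (SE 0.06, adjusted p = 0.000921). Both were picked after their values were seen. Of 7 genes of liver glycolysis and glucose uptake, 4 fell and 1, Pfkfb3, rose over the 20 pairs, against the same 18.9% and 18.6% of all genes. Among the fallers were the glucose transporter Slc2a2 (-0.32 ± 0.04), the ketohexokinase Khk (-0.34 ± 0.05) and the pyruvate kinase Pklr (-0.54 ± 0.09), with adjusted p up to 3.52e-05.

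Markers of some other cells moved in the same livers. All 12 measured neutrophil markers rose with all 25 pairs (median 2.54), where 7.89% of all genes rose. Their mean level ran from 5.38 to 6.16 in controls and from 6.66 to 10.2 in tumor-bearing mice, with no overlap. Of 9 macrophage and Kupffer cell markers, 6 rose over the 20 pairs, where 18.6% of all genes rose and 18.9% fell. Of 6 erythroid markers 4 rose and 1 fell there (median 0.36), and of 9 adipocyte markers 5 fell and 1 rose (median -0.09). Of the other lists 3 of 9 mammary epithelial, 1 of 7 lymphocyte and 1 of 7 skeletal muscle markers rose, and 1 of 7 exocrine pancreas markers fell. The counts of 1 in 7 lie under the shares of all genes. Of 10 hepatocyte markers, 4 rose and 2 fell over the 20 pairs, with a median of 0.02. With all 25 pairs their mean level ran from 10.91 to 13.79 in controls and from 13.25 to 13.83 in tumor-bearing mice. Over the 20 pairs the neutrophil mean's difference had r = 0.64 and rho = 0.70 with that of Pcx and r = -0.34 and rho = -0.31 with that of Hpd. Values like that of Hpd were seen for G6pc (r = -0.38, rho = -0.34) and Tdo2 (r = -0.31, rho = -0.39). Fbp1 (r = 0.26, rho = 0.33) and Got1 (r = 0.29, rho = 0.33) were positive, and Tat (r = -0.16) and Pck1 (r = -0.03) were weak. The part of these cells in the members' changes was not tested.

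In breast, Pck1 and Pcx fell far more than any member changed in liver. Pck1 ran from 10.57 through 12.20 to 13.01 in control breast and from 4.81 through 7.85 to 12.1 in tumor tissue, where 21 of 25 arrays lay below every control. Its change was -3.89 ± 0.43 (14.8-fold lower, adjusted p = 1.21e-08, lower in 24 of 25 pairs). Pcx ran from 9.80 through 12.0 to 12.7 in controls and from 7.87 through 8.435 to 10.8 in tumors, and again 21 of 25 arrays lay below every control. It fell by 3.12 (SE 0.21, 8.68-fold lower, adjusted p = 2.48e-11) and was lower in 25 of 25 pairs. In the 22 pairs without an array that stands apart the falls were 4.35 and 3.39. The 4 Pcx control probe sets were not alike in breast. Their names place the brightest at the 3′ end of the message and the dimmest at the 5′ end, and the part of position was not tested. The brightest, with a control mean of 12.1, was lower by 3.12 over all 25 pairs (SE 0.21, adjusted p = 2.1e-11 over probe sets) and the next, at 7.83, by 1.25 (SE 0.25, adjusted p = 0.000105), while those with control means of 6.08 and 5.20 gave 0.11 ± 0.16 (adjusted p = 0.556) and 0.06 ± 0.12 (adjusted p = 0.687). Of the other Pck1 probe sets 1 gave -3.25 ± 0.45 (adjusted p = 4.8e-07) and a dim one, with a control mean of 3.52, -0.01.

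**Figure D3:**
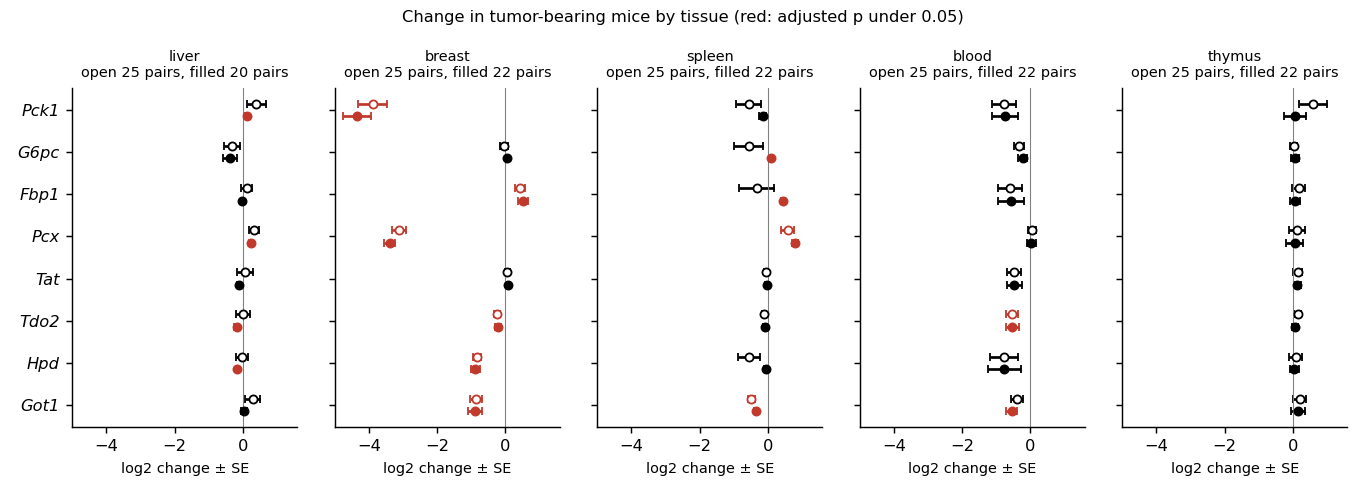
Log2 change ± SE of the 8 measured genes in 5 tissues, with all 25 pairs (open) and without pairs of arrays that stand apart (filled, 20 pairs in liver and 22 in the others); red marks an adjusted p under 0.05. Pck1 (-3.89) and Pcx (-3.12) in breast lie far from all other changes, and thymus has no red point.

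In all, 5 of the 8 members fell in breast and 1 rose, where 32.3% of all genes fell and 30.0% rose. The same counts held in the 22 pairs, where 35.8% fell and 31.8% rose. Got1 fell by 0.87 (SE 0.18, adjusted p = 0.000189, lower in 18 of 25 pairs), from a median of 9.74 to 8.96 with overlapping groups. Hpd fell by 0.82 (SE 0.12, adjusted p = 1.65e-06) and Tdo2 by 0.23 (SE 0.09, adjusted p = 0.0209), but neither lay above the array's median gene in any of 50 breast arrays, so these are changes of dim signals. Fbp1 rose by 0.42 ± 0.14 (adjusted p = 0.0125, higher in 22 of 25 pairs), from a median of 5.49 to 6.02, and lay above the array's median in 3 of 50 arrays. G6pc (-0.03 ± 0.12) and Tat (0.06 ± 0.07) were dim and not called. Tdo2 was lower in the 15 later pairs (-0.41 ± 0.11, adjusted p = 0.00498) and at 0.03 in the 10 earlier ones (adjusted p = 0.836). Its other probe sets gave -0.664 ± 0.175 and -0.045 ± 0.046 over all 25 pairs (limma adjusted p = 0.00179 and 0.411 over probe sets).

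Adipocyte markers moved with Pck1 and Pcx in breast. All 9 measured markers fell, among them adiponectin, Adipoq (-3.42 ± 0.33, from a median of 13.8 to 10.1), and Pparg (-4.17 ± 0.33), and the list's mean level ran from 9.11 to 11.7 in controls and from 6.48 to 10.6 in tumors. Over 25 pairs the mean difference of the list had r = 0.96 and rho = 0.98 with that of Pck1 and r = 0.95 and rho = 0.86 with that of Pcx. For Got1 (r = -0.12, rho = -0.23) and Hpd (r = 0.26, rho = 0.16) it was weak, and Got1 had its highest r with the skeletal muscle markers (r = 0.71, rho = 0.62). The tumor-bearing breast of pair 2 had the most adipocyte signal (10.6) and the highest Pck1 (12.1) of the tumors. In such whole-tissue RNA, fewer cells of a type and less RNA per cell cannot be told apart. Skeletal muscle markers fell as well, 7 of 7, and so did 6 of 7 lymphocyte markers, while 6 of 9 mammary epithelial markers rose and 1 fell. The Gapdh 3′ to 5′ ratio differed between the groups (0.79 ± 0.78 in controls and 0.03 ± 0.45 in tumors, SD, n = 25, log2), and its part was not tested.

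**Figure D4:**
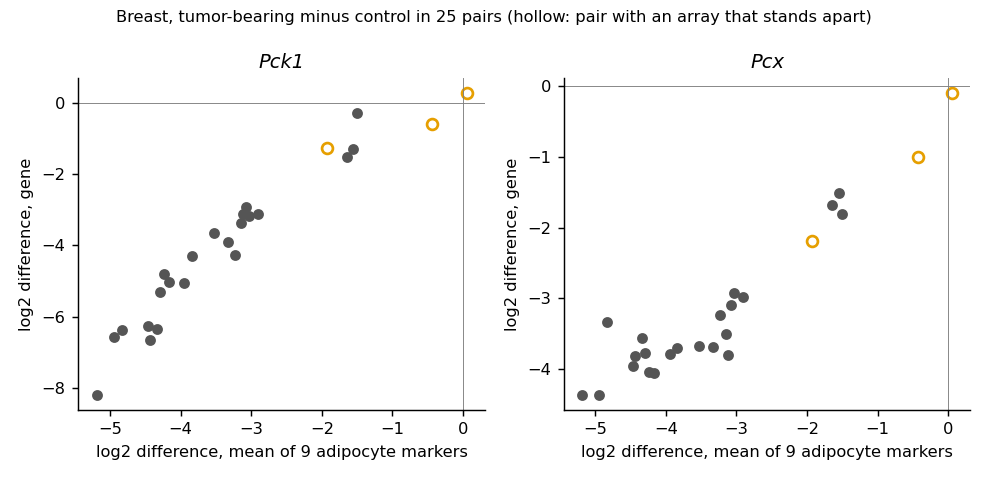
Breast log2 difference, tumor-bearing minus control, of Pck1 (left) and Pcx (right) against that of the mean of 9 adipocyte markers, 1 point per matched pair (25 pairs; hollow, the 3 with an array that stands apart). Pairs with a deeper fall of the markers have a deeper fall of Pck1 (r = 0.96) and of Pcx (r = 0.95).

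Of 15 measured other gluconeogenic enzymes and carriers, 12 fell and 3 rose in breast, where 32.3% of all genes fell and 30.0% rose. Gpd1, the glycerol 3-phosphate dehydrogenase of fat cells among others, fell by 3.53 (SE 0.33, adjusted p = 9.32e-10), and Pck2 rose by 1.11 ± 0.15 (adjusted p = 5.42e-07), so that the cytosolic and mitochondrial forms of the same enzyme went opposite ways. Slc25a13 rose by 1.97 ± 0.16 (adjusted p = 7.9e-11). These 3 were picked after their values were seen. Of 43 other amino acid catabolism enzymes, 30 fell and 5 rose.

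The change in liver was compared directly with that in breast in a fit over both tissues (50 pairs, 25 of each tissue). The fit takes these pairs as independent although the same mice gave both tissues, so its SE and adjusted p do not allow for that link. In it 40.5% of all genes differed (4261 with liver above breast and 3106 below, or 3699 and 4131 with quantile normalization). Pck1 differed by 4.29 ± 0.52 (limma adjusted p = 1.1e-09) and Pcx by 3.45 ± 0.26 (adjusted p = 1.4e-15), liver above breast. Got1 (1.15 ± 0.29, adjusted p = 0.00089) and Hpd (0.80 ± 0.23, adjusted p = 0.00283) differed in the same direction. Fbp1 differed the other way once the pairs with an array that stands apart were left out (-0.55 ± 0.16, adjusted p = 0.00245, and -0.31 ± 0.22, adjusted p = 0.287, with all). G6pc, Tat and Tdo2 were not called (adjusted p between 0.418 and 1.0 with all pairs).

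In spleen, a pair of control arrays went against their label. The spleen controls of pairs 13 and 21 had the B cell marker Cd79b at 5.74 and 6.11, where the spleen control median was 13.2, and carried Pck1 at 13.3 and 12.8, G6pc at 13.2 and 12.5, Fbp1 at 14.5 and 14.4 and Hpd at 10.96 and 10.57. Their Tdo2 (5.66 and 5.83) lay within the range of the other spleen controls, Tat (6.23 and 6.60) reached just above it, and their hepatocyte marker means were 5.86 and 7.84. The tumor-bearing spleen of pair 21 had Pck1 at 11.3 and Pcx at 11.2, with Adipoq at 13.2. Elsewhere in spleen Pck1, G6pc, Fbp1 and Hpd were dim, with control medians of 4.36, 4.84, 4.92 and 4.49 in the 22 pairs without an array that stands apart.

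With all 25 pairs Pcx rose in spleen by 0.58 ± 0.18 (adjusted p = 0.0118, higher in 23 pairs) and Got1 fell by 0.48 (SE 0.10, adjusted p = 0.000299, lower in 22 pairs), where 22.4% of all genes rose and 18.3% fell. In the 22 pairs, Pcx ran from 6.15 through 7.26 to 7.98 in controls and from 7.58 through 8.03 to 8.49 in tumor-bearing mice, 14 of which lay above every control. Its rise there was 0.80 ± 0.10 (1.74-fold, adjusted p = 8.07e-08), in 22 of 22 pairs. The 4 Pcx control probe sets were higher by 0.16 to 0.72 in the same pairs, with adjusted p up to 0.0071 over probe sets, and stood between -0.10 and 0.48 with all 25. Fbp1 rose by 0.45 ± 0.06 (adjusted p = 1.82e-07), also in 22 of 22 pairs, from a median of 4.92 to 5.37, whereas with the arrays that go against their label it stood at -0.33 ± 0.51. G6pc rose by 0.09 ± 0.04 (adjusted p = 0.0484), a change at the edge of the threshold in a dim signal: its adjusted p over probe sets was 0.0506, and with all 25 pairs G6pc stood at -0.56 ± 0.43 (adjusted p = 0.326). Got1, bright in spleen, fell by 0.36 (SE 0.06, adjusted p = 1.93e-05) from a median of 10.3 to 9.96. In these pairs 28.9% of all genes rose and 26.4% fell. In spleen all 12 neutrophil markers and 6 of 6 erythroid markers rose and 7 of 7 lymphocyte markers fell in the 22 pairs. The neutrophil mean's difference had r = 0.53 and rho = 0.49 with that of Fbp1, r = 0.21 and rho = 0.27 with that of Pcx, and r = -0.45 and rho = -0.42 with that of Got1, and the part of these cells was not tested.

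In blood cells 6 of the 8 members were dim, above the array's median gene in 15 or fewer of 50 arrays, and the exceptions were Tat (46) and Got1 (33). Pck1 was at the lowest value kept, 3.504, in 28 of 50 arrays. With all 25 pairs 1 of the 8 members was called, Tdo2, which fell by 0.55 (SE 0.18, adjusted p = 0.0383, lower in 20 pairs), where 4.27% of all genes fell. Its other probe sets were not called, at -0.77 ± 0.34 and -0.27 ± 0.12 (limma adjusted p = 0.165 and 0.169 over probe sets). In the 22 pairs Got1 fell too, by 0.55 (SE 0.15, adjusted p = 0.0111), where 13.2% of all genes fell. However, 9 blood arrays had a mean hepatocyte marker level above 6, 6 of them controls, and the highest were the controls of pairs 6 (9.65), 20 (9.29) and 24 (8.97). In those 3 arrays Hpd was at 9.73, 9.18 and 9.34, Fbp1 at 8.44, 8.16 and 7.78, Pck1 at 8.25, 7.99 and 7.53, and Tdo2 at 7.26, 6.45 and 6.17. In the 19 other controls Hpd did not pass 4.53 and Pck1 did not pass 3.81. With the pairs of those 9 arrays left out (16 pairs), a step chosen after seeing the data, Tdo2 was -0.20 ± 0.10 (adjusted p = 0.312), Got1 -0.10 ± 0.16 (adjusted p = 0.838), and 0 of the 8 members were called, where 1.51% of all genes fell, with 2 (G6pc and Pcx) at an unadjusted p under 0.05.

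**Figure D5:**
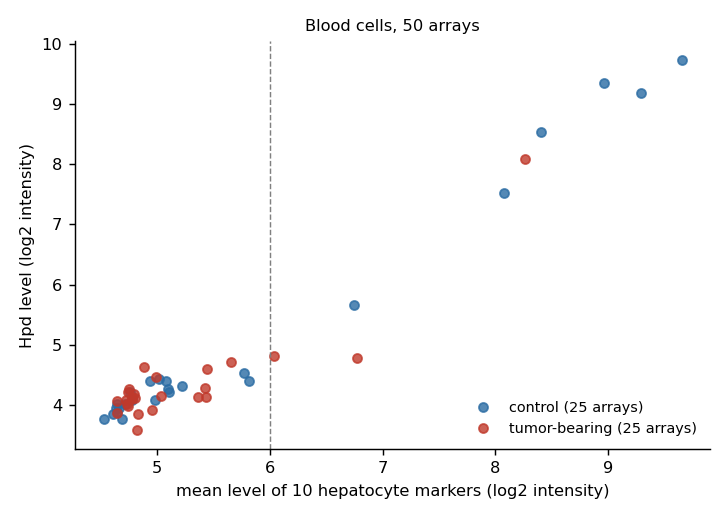
Hpd level against the mean level of 10 hepatocyte markers in the 50 blood arrays (log2 intensity; blue, control; red, tumor-bearing), with a dashed line at 6. The controls of pairs 6, 20 and 24 carry both the most marker signal (9.65, 9.29 and 8.97) and the most Hpd (9.73, 9.18 and 9.34).

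In thymus 0 of the 8 members were called by limma, and 0 had an unadjusted p under 0.05, with all 25 pairs or with 22. Only 0.011% of all genes were called there. Pck1 and Pcx were bright in thymus, at control medians of 10.9 and 10.0, and varied widely (5.53 to 12.6 and 7.92 to 12.0 in controls). Adipocyte markers varied with them: over 25 pairs their mean's difference had r = 0.95 and rho = 0.95 with that of Pcx and r = 0.68 and rho = 0.78 with that of Pck1. Hpd and Fbp1 followed the hepatocyte markers instead (r = 0.91 and 0.88, rho = 0.85 and 0.62). The Pck1 change was 0.59 ± 0.41 with all pairs and 0.05 ± 0.32 without the pairs of the 3 arrays that stand apart.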

How the data were processed

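The members and gene lists were chosen with earlier results of these data known. RNA was hybridised to Affymetrix mouse arrays, per the labels. The authors deposited 1 intensity per probe set and array, on a linear scale; its summary method and normalization were not given in the sources used here. A floor of 11.35, the 5th percentile over the whole table, was applied before taking log2. Of 45101 probe sets, 34958 had 1 gene symbol, 932 several and 9211 none. Each gene was read by its brightest probe set over all arrays, array controls left out, giving 18193 genes (of the symbols, 34754 matched the RefSeq mouse table GRCm38.p6 by Entrez number and 204 were kept as listed).

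Within each tissue, limma 3.58.1 (R 4.3.3) fitted tumor-bearing against control with the matched pair, which the labels name, as a block, and p was adjusted by Benjamini-Hochberg over all genes. Leaving out pairs with an array that stands apart was planned as an alternative. The fit was tested on simulated data with no pair effect, no array that stands apart, and planted changes larger than those of the members in liver. It thus does not show how the fit does under the conditions of the liver data. The number of arrays limits the precision, and within a tissue the pairs are separate mice. Correlations are over within-pair differences and have no test. Tables and figures used Python 3.11.15 with pandas 2.3.3 and scipy 1.17.1. Genes named beyond the members followed a rule: Erbb2, up to 3 called liver genes with the smallest p in each list, and the 3 genes most like Pck1, G6pc, Tat and Tdo2; exceptions are stated. Marker lists covered hepatocytes, neutrophils, macrophages, erythroid cells, adipocytes, mammary epithelium, skeletal muscle, exocrine pancreas and, added after seeing the data, lymphocytes.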

Additional observations from a re-analysis of the deposited data

Results flagged for a closer look

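For 4 members the change in liver differed from that in breast by a test of the difference (limma over 50 pairs, Benjamini-Hochberg adjusted over all genes), where 40.5% of all genes differed. The test took the liver and breast pairs as independent, although the same mice gave both tissues. The liver change was above the breast change by 4.29 for Pck1, 3.45 for Pcx, 1.15 for Got1 and 0.80 for Hpd on the log2 scale. With the pairs of arrays that stand apart left out these were 4.47, 3.62, 0.94 and 0.71, and with quantile normalization 4.27, 3.33, 1.13 and 0.53. Fbp1, not called with all pairs, differed the other way in both alternatives, by -0.55 without those arrays and by -0.53 with quantile normalization. The breast samples of tumor-bearing mice are tumor tissue, so these set tumor against normal breast beside liver against liver.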

How the results depend on the processing

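Counts below are members called higher and lower, of 8 measured. In liver, 0 and 0 with all 25 pairs became 2 and 2 without the pairs of arrays that stand apart, 1 and 1 with quantile normalization, 2 and 1 with array weights, and 1 and 4 in the later pairs. Over all genes 1436 and 415 became 3384 and 3444, 1175 and 741, 3459 and 3673, and 2209 and 2120 in the same order, so the calls of all genes moved too. Without the arrays that stand apart, joint alternatives added after seeing the data gave 2 and 1 with quantile normalization, 1 and 1 in the earlier pairs, and 1 and 2 in the later pairs. The counts over all genes there were 3144 and 4202, 1574 and 1836, and 2817 and 2422. Leaving out single pairs from the 25 gave 0 higher and 0 to 1 lower (1, Hpd, without pair 2), and from the 20 it gave 1 to 2 higher (1 without pair 14 or 22) and 1 to 2 lower. In breast, 1 and 5 became 2 higher with quantile normalization (3 when joined), 0 higher and 3 lower without genes under the median level, 0 higher in the later pairs, joined or not, and 3 lower in the earlier pairs, joined or not. Over all genes 5456 and 5873 became 6280 and 5138 with quantile normalization, 5098 and 5123 in the later pairs and 3317 and 3736 in the earlier pairs. Without genes under the median level they were 3935 and 2996, of 9097. In spleen, 1 and 1 became 3 higher without the arrays that stand apart, 2 with array weights, 2 in the earlier pairs, 0 in the later pairs and 2 in each joint alternative; quantile normalization gave 2 lower, joined or not, and leaving out pair 5 or pair 18 also gave 2 lower, against 1 to 2 over all single pairs. Over all genes 4081 and 3327 became 5257 and 4810 without those arrays, 5635 and 4923 with array weights, and 3546 and 4249 with quantile normalization. The earlier pairs gave 4001 and 3870 and the later pairs 2931 and 1828. In blood, 1 lower became 0 without genes under the median level, 0 in the earlier pairs and 0 without the pairs of high hepatocyte marker level, joined or not; it became 2 without the arrays that stand apart, also with quantile normalization. With array weights and in the later pairs the count stayed at 1, but the gene was Got1 (limma adjusted p = 0.00218 and 0.0304). Tdo2 was not called in either (adjusted p = 0.0566 and 0.0819). Of all genes 2980 and 1002 were lower there. Of all genes 776 were lower with all pairs, 14 in the earlier pairs and 275 without the pairs of high hepatocyte marker level. Without the arrays that stand apart 2395 were lower, and without genes under the median level 618 of 9097.

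The pairs come from the matched mouse in the labels. With no replicate block for the pair, spleen had 0 higher (3761 over all genes), and the other counts with all pairs did not move. Without the arrays that stand apart, no block gave 1 and 1 in liver, 2 higher in spleen and 2 lower in blood. Over all genes these were 2590 and 2437 in liver, 4938 higher in spleen and 1654 lower in blood.

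Some signs turned. In liver G6pc was 0.29 in the earlier pairs (0.08 joined) and Hpd 0.25 in the earlier pairs. Fbp1 in liver was -0.05 with quantile normalization, -0.03 with array weights or without the arrays that stand apart, and -0.04 in the later pairs. Tat in liver was -0.01 with quantile normalization (-0.11 joined), -0.11 with array weights, -0.12 without the arrays that stand apart and -0.25 in the later pairs (-0.19 joined). Tdo2 in liver was -0.01 with quantile normalization (-0.13 joined), -0.15 with array weights, -0.18 without those arrays and -0.39 in the later pairs (-0.32 joined). In breast G6pc was 0.05 without those arrays (0.11 with quantile normalization, 0.04 earlier, 0.06 later), 0.07 with array weights and 0.13 in the earlier pairs, and Tdo2 was 0.03 in the earlier pairs (0 joined). In spleen Fbp1 was 0.45 without those arrays (0.42 with quantile normalization, 0.49 later), 0.41 with array weights and 0.39 in the earlier pairs, against -0.33 with all. Spleen G6pc, -0.56 with all pairs, was 0.09 without those arrays (0.06 with quantile normalization, 0.10 earlier, 0.08 later), 0.08 with array weights and 0.10 in the earlier pairs. Spleen Hpd, -0.54 with all, was 0.02 in the earlier pairs, joined or not, Pck1, -0.56 with all, was 0.01 in the later pairs without those arrays, and Tat was 0.01 with array weights and 0.03 in those later pairs. In blood, without the pairs of high hepatocyte marker level, Pck1 went from -0.76 to 0.04 (0.04 joined), Fbp1 from -0.60 to 0.04 (0.09 joined) and Hpd from -0.77 to 0.02 joined; G6pc was 0.10 in the earlier pairs, joined, and Pcx -0.12 in the later pairs (-0.13 joined). In thymus, array weights gave Pck1 -0.16, Pcx -0.16, Hpd -0.03 and G6pc -0.01 (0 with quantile normalization), the earlier pairs, joined, gave Pck1 -0.21 and Pcx -0.09, and the later pairs, joined or not, gave G6pc -0.08, Fbp1 -0.03, Tdo2 -0.03 and Hpd -0.02. The liver minus breast difference of Tat was -0.19 without those arrays and with quantile normalization. With single pairs left out of the 25, liver Fbp1 ran from -0.06 to 0.14, Tat from -0.17 to 0.11, Tdo2 from -0.21 to 0.04, Hpd from -0.21 to 0.02 and Got1 from 0.09 to 0.33, breast G6pc from -0.06 to 0.09, spleen Fbp1 from -0.39 to 0.05, thymus G6pc from -0.06 to 0.07 and thymus Hpd from -0.04 to 0.17. Left out of the 20 pairs, they gave liver Got1 from 0 to 0.08. Apart from the arrays left out, the cause was not tested. Quantile normalization also moved the split of all called genes, from 1436 higher and 415 lower to 1175 and 741 in liver, from 4081 and 3327 to 3546 and 4249 in spleen, and from 1575 and 776 to 1485 and 1170 in blood.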

Other observations

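Exocrine pancreas markers ran from 5.66 to 14.6 in mean level among spleen controls and from 5.56 to 14.3 among tumor-bearing spleens. The highest spleen control, that of pair 9, stands apart. The part of these markers in the spleen and thymus changes was not tested. They reached 12.8 in 1 thymus control, that of pair 20, which stands apart too. That thymus array also had the highest means of erythroid (12.9), neutrophil (12.5) and lymphocyte (11.9) markers among thymus controls. Its mean of mammary epithelial markers (5.85) was the lowest there. Its Pck1, at 5.53, and Pcx, at 7.92, were the lowest thymus control values of both.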
